A study of Mus musculus with 17 samples.

Results

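The genes described here are 10 mouse genes of the insulin signalling pathway, chosen by name: the receptors Insr and Igf1r, the adaptors Irs1 and Irs2, the phosphoinositide 3-kinase subunit Pik3r1, the kinases Akt1 and Akt2, the transcription factors Foxo1 and Foxo3, and the secreted binding protein Igfbp1. They are 10 of the 21938 protein-coding genes that were examined in the same way. For each gene, open chromatin in the kidney was read in a window from 10 kb upstream of the gene to its end, with mm10 coordinates and the GENCODE vM21 gene models.

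Insulin binds a receptor tyrosine kinase, which phosphorylates the insulin receptor substrates. These recruit phosphoinositide 3-kinase, the lipid it makes activates the AKT kinases, and AKT phosphorylates the FOXO factors and keeps them out of the nucleus. Igfbp1 is a classical FOXO target that insulin switches off. In the proximal tubule, insulin is known to restrain glucose production and to promote sodium reabsorption.

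ATAC-seq, in which a transposase cuts accessible DNA, was performed on 20000 kidney cells from each of 17 male mice. All mice were 8 weeks old at the start and were dosed daily over 6 weeks. The Ctrl group held 5 wild-type C57BL/6 mice that received saline. The Case group held 6 db/db mice (BKS.Cg-Dock7m +/+ Leprdb/J), which carry a mutation of the leptin receptor gene in all cells, and also received saline. The Dapa group held 6 db/db mice of the same stock that received dapagliflozin, an inhibitor of the sodium-glucose cotransporter SGLT2, in a daily dose of 1 mg/kg. The Case and Dapa mice share the db/db genotype and the BKS background, so genotype, diabetes and strain background cannot be told apart in any comparison with Ctrl.

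Each library was deposited as a list of peak summits, the points of highest signal, with a peak caller score on the −log10 scale. The lists held between 29702 and 56659 summits. Because the lists carry no read totals, the sequencing depth behind them is unknown. To compare mice at 1 list length, the 29702 highest-scoring summits of each library were used, and the lowest score kept ran from 3.91 to 5.53 in Ctrl, from 2.01 to 5.20 in Case and from 3.11 to 4.66 in Dapa. Intervals reaching 250 bp on either side of the summits of all libraries were merged, and merged regions with a summit in at least 2 libraries were kept. A region's rank percentile in a mouse was 100 for the highest score of its list and 0 where the list held no summit there. With complete lists or scores of at least 5, used as alternatives, the lists differed in length between libraries. Complete lists held 37402 to 56659 summits in Ctrl, 29702 to 51292 in Case and 32846 to 49442 in Dapa. A longer list gives the same rank a higher percentile and leaves more summits to count. Among the defining markers, the proximal tubule genes Lrp2, Cubn and Slc34a1 had a summit at their start in 17, 15 and 16 libraries, whereas Pecam1 (endothelium), Ptprc (leukocyte) and Adipoq (adipocyte) had none in any library. The thick ascending limb gene Umod had one in 2 Ctrl, 4 Case and 2 Dapa mice, and the glomerular gene Nphs1 in 3 Case mice and no others. The leukocyte gene Spi1 had one in 2 Case and 1 Dapa mice and Cd3e in 1 Dapa mouse. Over all markers of each type, 0 to 2 of 10 endothelial and 2 to 4 of 10 adipocyte genes had a start summit per library in the equal summit lists, with the lipases Lipe and Pnpla2 open in all 17. Of 12 markers of other tubule segments, 3 to 6 had one in Ctrl, 4 to 6 in Case and 4 to 5 in Dapa. Of 12 leukocyte markers, Case 3 had a start summit at 5 and Dapa 8 at 4. The counts were 0 to 1 in Ctrl and in the other Case mice, and 0 to 2 in the other Dapa mice. The proximal tubule list of 10 genes was open at 7 to 10 genes in Ctrl and at 5 to 8 in both Case and Dapa, and the part of cell composition in the results below was not tested. In such cell mixtures, fewer cells with an open site and a weaker opening in each cell cannot be told apart.

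The member windows held 60 merged regions out of 52371 in the genome. Regions are numbered in the direction of transcription, so that Insr-1 is the first of the insulin receptor gene. The sequences of the regions away from the gene's main start that had an unadjusted p under 0.05 with the equal lists are shown first, as 300 bp of the mm10 reference on the strand of the gene, centred on the median summit. Capitals mark letters that match a searched motif on either strand: CAAAACA (insulin response sequence), GTAAACA (FOXO), GTTAAT (HNF1 half-site), CAAAGTC (HNF4), TGANTCA (AP-1), GGGCGG (SP/KLF), CCGGAAG (ETS), GCATGCGC (NRF1) or AGGGGGC (CTCF core). Insr-9 is shown at chr8:3191109-3191408 (minus strand), Insr-8 at chr8:3211735-3212034 (minus strand), Irs2-2 at chr8:11007029-11007328 (minus strand) and Foxo3-8 at chr10:42230897-42231196 (minus strand).
Insr-9: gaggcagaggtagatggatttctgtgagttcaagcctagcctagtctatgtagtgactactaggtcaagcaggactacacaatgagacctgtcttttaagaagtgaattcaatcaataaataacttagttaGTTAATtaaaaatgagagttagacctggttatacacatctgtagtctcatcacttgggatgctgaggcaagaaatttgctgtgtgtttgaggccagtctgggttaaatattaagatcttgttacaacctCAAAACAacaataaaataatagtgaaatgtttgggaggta
Insr-8: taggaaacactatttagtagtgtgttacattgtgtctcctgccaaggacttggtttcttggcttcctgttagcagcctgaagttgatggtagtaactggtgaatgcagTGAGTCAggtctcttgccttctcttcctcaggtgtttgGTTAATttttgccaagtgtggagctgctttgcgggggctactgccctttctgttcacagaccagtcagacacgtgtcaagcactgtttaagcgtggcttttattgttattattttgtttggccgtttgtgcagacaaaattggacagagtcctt
Irs2-2: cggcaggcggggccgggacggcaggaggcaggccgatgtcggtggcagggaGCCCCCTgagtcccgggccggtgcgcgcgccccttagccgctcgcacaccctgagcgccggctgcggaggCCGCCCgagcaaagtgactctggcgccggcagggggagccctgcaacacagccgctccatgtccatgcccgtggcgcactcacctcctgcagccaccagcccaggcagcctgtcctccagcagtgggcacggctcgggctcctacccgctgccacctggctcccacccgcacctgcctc
Foxo3-8: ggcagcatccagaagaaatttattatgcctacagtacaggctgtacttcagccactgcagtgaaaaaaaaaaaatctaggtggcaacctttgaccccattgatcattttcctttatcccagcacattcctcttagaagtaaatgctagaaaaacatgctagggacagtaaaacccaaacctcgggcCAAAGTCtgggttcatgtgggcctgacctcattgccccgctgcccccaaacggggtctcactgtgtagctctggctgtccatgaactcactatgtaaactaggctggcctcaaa

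These windows differed in composition. Insr-9 was AT-rich, with a GC content of 37.0%, no CpG and 52.3% of its bases in soft-masked repeats, and it held CAAAACA and GTTAAT. Insr-8 had a GC content of 45.0% and held GTTAAT and TGAGTCA, and Foxo3-8 (47.0% GC) held CAAAGTC. Irs2-2, by contrast, lay in the coding exon of Irs2 and had a GC content of 74.7%. None of these windows had another genomic copy at 90% identity over 80% of its length. CAAAACA letters stood in 10 of the 60 member regions and in 6.41% of all regions, GTAAACA letters in 7 of 60 and in 3.35%, and GTTAAT letters in 13 of 60 and in 12.0%. GGGCGG letters stood in 18 of 60 and in 24.6% of all regions, while CCGGAAG and GCATGCGC stood in 0 of 60 and in 6.03% and 1.71% of all regions.

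The promoters at which the chromatin data bear on the pathway's output and on the Akt2 result are shown next, as RefSeq promoter windows (GRCm38.p6, the mm10 sequence) from 250 bases before to 50 after the start. The RefSeq table matched 9 of the 10 genes. The window of Igfbp1 is chr11:7197537-7197836 (plus strand), that of Irs2 is chr8:11008880-11009179 (minus strand) and that of Akt2 is chr7:27591302-27591601 (plus strand). Capitals mark CAAAACA or GTAAACA letters on either strand.
Igfbp1: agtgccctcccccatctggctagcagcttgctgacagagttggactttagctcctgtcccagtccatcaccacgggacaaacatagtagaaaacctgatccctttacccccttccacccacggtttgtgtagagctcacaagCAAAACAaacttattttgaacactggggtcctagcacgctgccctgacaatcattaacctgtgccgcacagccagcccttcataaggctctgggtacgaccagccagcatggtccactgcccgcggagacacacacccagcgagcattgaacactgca
Irs2: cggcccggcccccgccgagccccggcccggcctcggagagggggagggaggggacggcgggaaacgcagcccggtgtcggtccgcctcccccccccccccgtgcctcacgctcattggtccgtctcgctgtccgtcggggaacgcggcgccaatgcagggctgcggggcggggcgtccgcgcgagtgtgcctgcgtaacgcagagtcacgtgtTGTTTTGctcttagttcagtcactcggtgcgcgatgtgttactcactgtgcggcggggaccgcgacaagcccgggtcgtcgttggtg
Akt2: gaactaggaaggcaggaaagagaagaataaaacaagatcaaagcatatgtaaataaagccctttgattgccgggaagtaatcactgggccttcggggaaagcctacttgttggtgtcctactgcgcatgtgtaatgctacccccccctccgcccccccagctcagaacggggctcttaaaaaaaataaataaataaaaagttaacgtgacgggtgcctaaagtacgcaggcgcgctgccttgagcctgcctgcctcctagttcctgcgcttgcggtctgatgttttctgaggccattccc

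The Igfbp1 and Irs2 windows each held 1 CAAAACA match, and the Akt2 window held none. CAAAACA was found in 6.28% of all 32851 RefSeq promoter windows. The Igfbp1 window had a GC content of 54.3% and a CpG ratio of 0.383, whereas the Irs2 window had 72.0% and 1.06.

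In all 3 groups the insulin signalling genes, with the exception of Akt1, were open near their starts, Igf1r at a region centred 1016 bp upstream. For 8 of the 10 genes, every one of the 17 libraries had a summit no more than 1 kb from an annotated start, compared with 31.6% of protein-coding genes. A summit lay anywhere in the window in all 17 libraries for 9 of 10 genes, compared with 41.4%. The members' windows were longer than most, with a median of 81.6 kb against 27.4 kb, and held a median of 2.68 summits against 1 for all genes. Per 100 kb the medians were 3.67 and 2.01 summits. Of the 60 member regions, 15 (25.0%) had a summit in every library, compared with 15.0% of all regions. Of those 15, 9 lay within 1 kb of a start of their own gene and 6 lay farther away. By position, 45 regions were intronic, 9 upstream, 5 in untranslated exons and 1 in a coding exon.

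**Figure D1:**
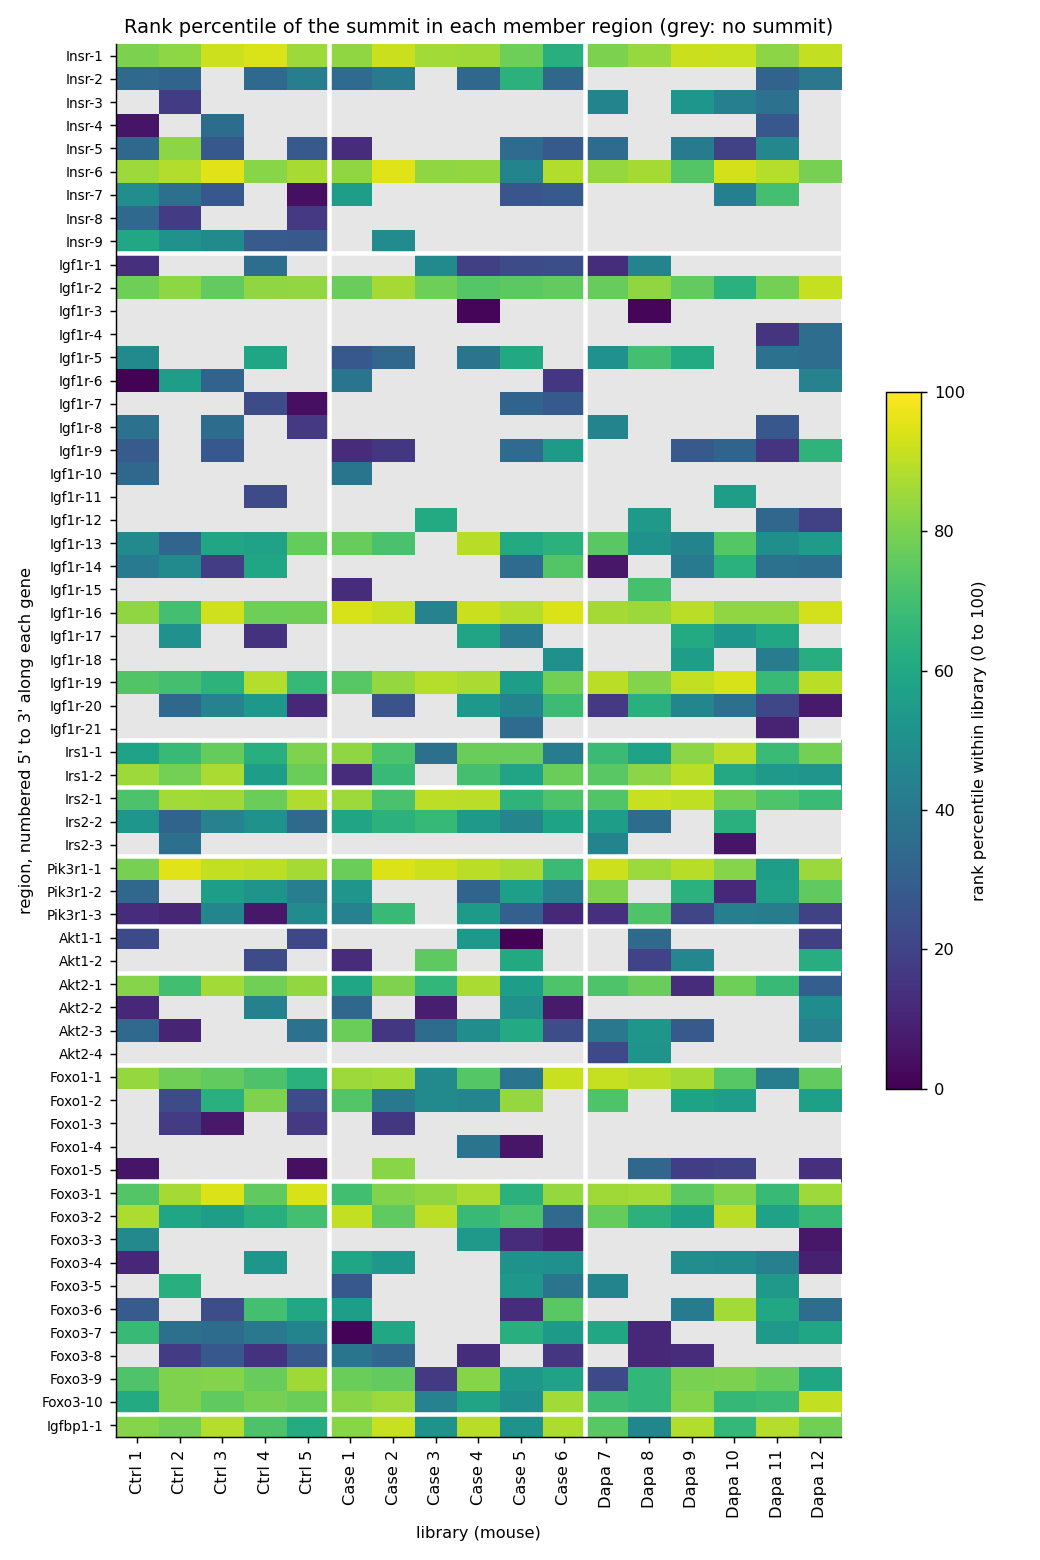
Rank percentile (colour, 0 to 100) of the 60 member regions (rows, by gene) in the 17 libraries (columns, by group), with grey where the library's list of 29702 summits held none. The rows that are coloured throughout are the 15 regions open in every mouse, and Insr-9 is coloured in the 5 Ctrl mice and in 1 of the 12 db/db mice.

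Insr, which encodes the insulin receptor (ENSMUSG00000005534.10, chr8:3122061-3279617, minus strand), held 9 regions. Insr-1 at the start (chr8:3279300-3279916) was open in every mouse, with a lowest, median and highest rank percentile of 80.4, 85.5 and 94.3 in Ctrl, of 63.0, 84.6 and 92.1 in Case and of 80.2, 87.7 and 92.0 in Dapa. Insr-6, an intronic region 58461 bp downstream (chr8:3220843-3221522), ranked as high, with means of 87.8 ± 4.99 (SD, n = 5) in Ctrl, 79.9 ± 17.6 (n = 6) in Case and 84.2 ± 7.14 (n = 6) in Dapa. The groups overlapped at both regions, and with the equal lists neither passed an unadjusted p under 0.05 in any comparison. With scores of at least 5, Insr-1 differed by −13.2 points in Case against Ctrl (exact permutation p = 0.0216). With the equal lists the difference was −5.73 (exact permutation p = 0.333). In the score setting, with lists of unequal length, 21.3% of all regions had a p under 0.05.

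The last region of Insr had a summit in every wild-type mouse and in 1 of the 12 db/db mice. Insr-9 (chr8:3190892-3191548) lies in an intron, 88358 bp from the gene start and 1458 bp from the start of a shorter annotated Insr transcript. Its percentiles in Ctrl 1 to 5 were 60.1, 50.6, 47.8, 28.8 and 27.9. Among the Case mice only Case 2 had a summit there, at 48.1, and the 6 Dapa mice had none. The summits lay within 156 bp of each other (chr8:3191142-3191298). In the complete lists the same interval gained 1 summit, in Case 1 at rank 36654 of 43478, so that all 5 Ctrl mice, 2 Case mice and 0 Dapa mice had one.

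The mean percentile of Insr-9 was 43.0 ± 14.2 (SD, n = 5) in Ctrl, 8.02 ± 19.6 (n = 6) in Case and 0 in all 6 Dapa mice. The difference was −35.0 percentile points in Case against Ctrl (exact permutation p = 0.0173, adjusted over all regions p = 0.255). It was −43.0 points in Dapa against Ctrl (exact permutation p = 0.00433, the smallest this design can give, adjusted p = 0.167). Against Ctrl, the 12 db/db mice together differed by −39.0 points (exact permutation p = 0.00129, adjusted p = 0.0744). By presence, the exact Fisher p was 0.0152 for Case against Ctrl, 0.00216 for Dapa against Ctrl and 0.00097 for db/db against Ctrl, with adjusted p of 0.149, 0.178 and 0.161. With all summits the exact Fisher p for Case against Ctrl was 0.0606. No adjusted p of the equal lists passed 0.05, and Dapa against Case could not be tested with 1 summit in 12 libraries. All Dapa mice lay below all Ctrl mice, which was the case for 1.87% of the regions tested in that comparison. With scores of at least 5 in place of the equal lists, Insr-9 was present in 5 of 5 Ctrl mice and absent from all 12 db/db mice. Its adjusted p for db/db against Ctrl was then 0.0813 by presence (exact Fisher test), which did not pass, and 0.0274 by percentiles (exact permutation test). The lists of that setting differ in length, and 3.27% of all regions passed there after adjustment for the percentiles of db/db against Ctrl. The share was 0.743% with the equal lists. Insr-9 was not testable with lists of 14851 summits, in which most of its summits are no longer included.

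**Figure D2:**
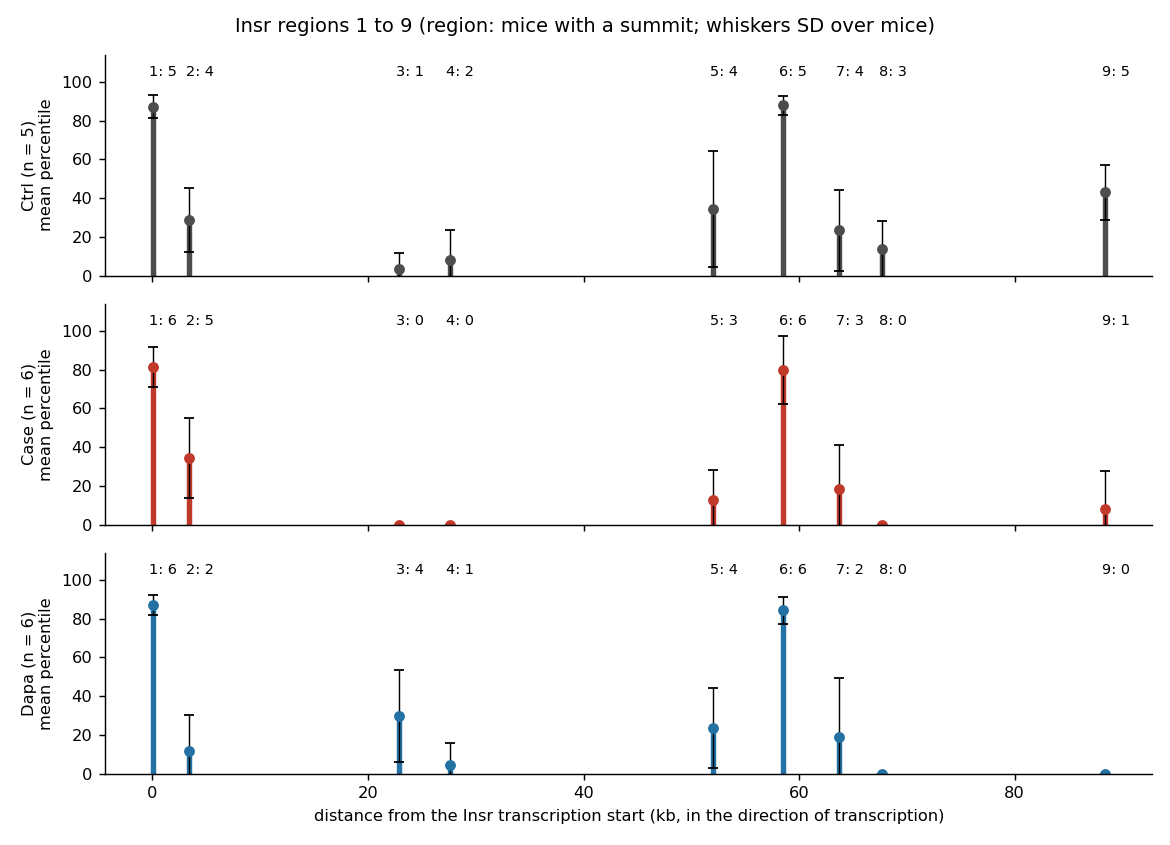
Mean rank percentile (points, whiskers SD over mice, cut at 0) of the 9 Insr regions by distance from the Insr start in kb, for Ctrl (top), Case (middle) and Dapa (bottom), with the number of mice that have a summit written above each region. Regions 1 and 6 are open in all mice, region 9 is open in 5 Ctrl mice, 1 Case mouse and 0 Dapa mice, and region 8 in 3, 0 and 0.

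Insr-8 (chr8:3211493-3212175, intron, 67732 bp downstream) had a summit in Ctrl 1, Ctrl 2 and Ctrl 5, at percentiles of 34.0, 17.7 and 16.8, and in none of the 12 db/db mice, also in the complete lists. The exact Fisher p for db/db against Ctrl was 0.0147 (adjusted p = 0.273), and without any 1 of those 3 Ctrl mice the region could no longer be tested. Insr-3, nearer to the start (22905 bp downstream), was open in Ctrl 2 and in 4 Dapa mice and in no Case mouse. Its mean percentile was 29.8 ± 23.5 (SD, n = 6) in Dapa against 0 in Case, with an exact permutation p of 0.0606. Without Dapa 8, and likewise without Dapa 12, that difference was 35.7 points (exact permutation p = 0.0303, exact Fisher p = 0.0152). Dapa against Ctrl was then 32.2 points (exact permutation p = 0.0476). Dapa 8 and Dapa 12 were the Dapa mice without a summit at Insr-3, so leaving out either must raise the Dapa mean. Insr-2, in the intron 3418 bp downstream (chr8:3275828-3276506), had a summit in 4 Ctrl, 5 Case and 2 Dapa mice, and in 4 Dapa mice in the complete lists. Its difference was −22.6 points in Dapa against Case (exact permutation p = 0.0909), −29.5 without Case 3 (p = 0.0303) and −28.1 without Dapa 12 (p = 0.0260). Case 3 was the Case mouse without a summit there and Dapa 12 the highest Dapa mouse, so either omission widens the difference. Summits over the whole Insr window numbered 8, 8, 6, 4 and 7 in Ctrl 1 to 5. They ran from 2 to 6 with a median of 5 in Case, and from 2 to 8 with a median of 4.5 in Dapa. The 12 db/db mice together differed from Ctrl by −2.1 summits (exact permutation p = 0.0495, adjusted p = 0.993). The groups overlapped, and the p was above 0.05 in 14 of the 17 fits that left out 1 mouse, with values up to 0.133. Without Case 3 and Dapa 8, the mice with the most leukocyte marker summits, the difference was −1.6 (exact permutation p = 0.101), and that of Insr-9 was −38.2 (p = 0.00266).

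Igf1r, the receptor for insulin-like growth factors (ENSMUSG00000005533.10, chr7:67952827-68233668, plus strand), had the most regions, 21 in a window of 290.8 kb. Its summits numbered 11, 10, 9, 15 and 9 in Ctrl 1 to 5, 8 to 13 with a median of 10.5 in Case, and 9 to 15 with a median of 11 in Dapa. No comparison of these numbers had a p under 0.05. A summit within 1 kb of a GENCODE start was present in 11 of 17 libraries, while the leading region Igf1r-2 (chr7:67951478-67952613) is centred 1016 bp upstream of the annotated start. That region was open in all 17 mice with mean percentiles of 80.9 ± 3.58 (SD, n = 5), 77.7 ± 4.60 (n = 6) and 78.3 ± 9.03 (n = 6) in Ctrl, Case and Dapa. In Case against Ctrl it differed by −3.21 points with the equal lists (exact permutation p = 0.251). The difference was −5.66 points with all summits (exact permutation p = 0.0476) and −13.9 with scores of at least 5 (p = 0.00433). In those settings, with lists of unequal length, 16.9% and 21.3% of all regions had a p under 0.05. The RefSeq promoter window of Igf1r (chr7:67952007-67952306) lies within Igf1r-2.

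A pair of distal Igf1r regions were also open in every mouse. Igf1r-16, in an intron 144443 bp downstream (chr7:68096796-68097667), was the highest-ranked Igf1r region, with a mean percentile of 84.1 over the 17 mice. Its Case values ran from 44.2 in Case 3 to 94.3, with a median of 91.7, while Ctrl ran from 70.2 to 92.9 and Dapa from 83.4 to 93.2. Igf1r-19, 176341 bp downstream (chr7:68128826-68129540), had medians of 70.6 in Ctrl, 81.4 in Case and 89.5 in Dapa. The largest difference at Igf1r-19 was 12.7 points, between Dapa and Ctrl, and did not pass (exact permutation p = 0.0649, adjusted p = 0.393). It was 16.3 without Dapa 11 (exact permutation p = 0.0159) and 16.7 without Ctrl 4 (p = 0.0286). For db/db against Ctrl, Igf1r-19 differed by 11.4 points without Case 5 (exact permutation p = 0.0321) and by 13.1 without Ctrl 4 (p = 0.0484). Dapa 11 had the lowest Dapa value, Case 5 the lowest db/db value and Ctrl 4 the highest Ctrl value. Each of these omissions therefore widens the difference. With the equal lists and all mice, none of the 21 Igf1r regions passed an unadjusted p under 0.05. The Igf1r-16 difference between Case and Ctrl was 3.55 points (exact permutation p = 0.797), and without Case 3 it was 11.54 (p = 0.0317). Case 3 had the lowest Igf1r-16 value of all mice, so leaving it out must raise the Case mean. For db/db against Ctrl the Igf1r-16 difference was 8.64 without Case 3 (exact permutation p = 0.0211). In Dapa against Case, Igf1r-16 differed by 2.67 points with all mice (exact permutation p = 0.987) and by −5.32 without Case 3 (p = 0.0303).

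Irs1, the first of the insulin receptor substrates (ENSMUSG00000055980.2, chr1:82233101-82291416, minus strand), held 2 regions. Irs1-1 at the start (chr1:82291038-82291964) was open in every mouse, with percentiles from 57.9 to 80.5 in Ctrl, from 36.9 to 83.3 in Case and from 57.9 to 89.8 in Dapa. Irs1-2, in the intron 8025 bp downstream (chr1:82283095-82283663), was missing in Case 3 and ranked 12.8 in Case 1. Its values in Ctrl 1 to 5 were 85.3, 79.3, 87.4, 55.5 and 77.5, its Case median was 63.0 and its Dapa median 67.4. The difference of −29.1 between Case and Ctrl did not pass (exact permutation p = 0.0823), and it was −28.0 with all summits and −38.3 with scores of at least 5 (p = 0.0433 each). In those settings, with lists of unequal length, 16.9% and 21.3% of all regions had a p under 0.05. Irs1 had 2 summits in every Ctrl mouse, 1 to 3 in Case and 2 or 3 in Dapa.

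Irs2, the second insulin receptor substrate (ENSMUSG00000038894.7, chr8:10984681-11008458, minus strand), gave the one member region with an unadjusted p under 0.05 both between Case and Ctrl and between Dapa and Case, in opposite directions. Both comparisons use the same Case mice and are not independent, and a high Case mean alone moves them in opposite directions. Irs2-1 at the start (chr8:11008698-11009994) ranked alike in all groups, with means of 82.0 ± 6.81 (SD, n = 5), 79.0 ± 10.7 (n = 6) and 79.0 ± 9.90 (n = 6). Irs2-2 (chr8:11006870-11007460), in the coding exon 1279 bp downstream and within 1 kb of a start of the neighbouring gene 9530052E02Rik, had percentiles of 52.4, 32.1, 44.3, 51.2 and 34.5 in Ctrl 1 to 5. They were 58.5, 64.2, 67.2, 54.2, 45.5 and 57.8 in Case 1 to 6. In Dapa 7, Dapa 8 and Dapa 10 they were 56.2, 35.4 and 63.3, and Dapa 9, Dapa 11 and Dapa 12 had no summit, also in their complete lists. Only Case 5 lay within the Ctrl range, and the Dapa mice split into 3 with a summit and 3 without.

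The mean percentile of Irs2-2 was 42.9 ± 9.35 (SD, n = 5) in Ctrl, 57.9 ± 7.67 (n = 6) in Case and 25.8 ± 29.7 (n = 6) in Dapa. It was 15.0 points higher in Case than in Ctrl (exact permutation p = 0.0216, adjusted p = 0.255). It differed by −32.1 points in Dapa against Case (exact permutation p = 0.0346, adjusted p = 0.985). The first difference had a p under 0.05 in all 11 fits that left out 1 mouse, and the second in 4 of 12, with a p of up to 0.0693. The first was sensitive to the list: it was 3.66 points with all summits (exact permutation p = 0.385) and −1.89 with scores of at least 5 (p = 0.814). The second was −32.3 with all summits (p = 0.108) and −10.8 with lists of 14851 summits (exact permutation p = 0.156).

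Pik3r1, which encodes the p85 regulatory subunit of phosphoinositide 3-kinase (ENSMUSG00000041417.15, chr13:101680563-101768217, minus strand), was the one member whose summit number had an unadjusted p under 0.05 between Dapa and Case. Its window held 4, 2, 3, 4 and 5 summits in Ctrl 1 to 5. The 6 Case mice had 3, 2, 2, 3, 3 and 3, and the 6 Dapa mice had 5, 2, 5, 4, 4 and 5. Only Dapa 8 overlapped the Case range. Dapa had 1.5 more summits than Case (exact permutation p = 0.0411, adjusted p = 1). The p stayed under 0.05 in 1 of the 12 fits that left out 1 mouse, the one without Dapa 8 (1.93 more, exact permutation p = 0.00433), and reached 0.0823 in the others. With summits within 500 bp counted once the difference was 0.833 (exact permutation p = 0.206), and it was 0.5 with lists of 14851 summits (p = 0.394). With all summits the means were 4.67 in Dapa and 3.17 in Case, and the p was not under 0.05. With scores of at least 5, where the lists differ in length, Case differed from Ctrl by −1.27 summits (exact permutation p = 0.0433, adjusted p = 0.699). With the equal lists that difference was −0.933 (exact permutation p = 0.195).

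No single Pik3r1 region had a p under 0.05 between Dapa and Case. Pik3r1-1 at the start (chr13:101767956-101769063) was open in every mouse, at mean percentiles of 88.4 ± 5.75 (SD, n = 5), 85.0 ± 10.1 (n = 6) and 81.6 ± 13.0 (n = 6), and Pik3r1-2 in the first intron (chr13:101763911-101764640) was open in 4, 4 and 5 mice. Pik3r1-3 (chr13:101693873-101695290) lies 35 bp from the start of a shorter Pik3r1 transcript and was open in 5, 5 and 6 mice, at medians of 12.7, 37.5 and 31.5.

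Akt1 (ENSMUSG00000001729.14, chr12:112653821-112674884, minus strand), the more widely expressed AKT kinase, was the least open of the members. Its window held 1, 0, 0, 2 and 1 summits in Ctrl 1 to 5, and 0 to 2 with a median of 1 in both Case and Dapa. Of its 2 regions, Akt1-2 (chr12:112675166-112675759), 596 bp upstream, had a summit in Ctrl 4 (23.0), in 3 Case mice (12.8, 75.4 and 60.6) and in 3 Dapa mice (20.2, 46.4 and 62.4). Akt1-1 (chr12:112678386-112679079) overlaps the start of the neighbouring gene Zbtb42. Neither RefSeq promoter window of Akt1 (chr12:112674835-112675134 and chr12:112674227-112674526) overlapped a merged region. In the complete lists, 13 of 17 libraries had a summit within 1 kb of an Akt1 start. No comparison of Akt1 in the equal lists had a p under 0.05. With all summits, the db/db mice differed from Ctrl by −1.15 summits (exact permutation p = 0.0359, adjusted p = 0.705), and 6.26% of all genes had a p under 0.05 in that test. With the equal lists the difference was 0.117, of the opposite sign. From equal to complete lists, which differ in length, the mean went from 0.8 to 2.4 in Ctrl. It went from 0.833 to 1.17 in Case and from 1 to 1.33 in Dapa.

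Akt2, the kinase required for insulin-stimulated glucose uptake (ENSMUSG00000004056.15, chr7:27591552-27640826, plus strand), was open at its start in every mouse. The percentiles of Akt2-1 (chr7:27591212-27592258) were 81.7, 69.7, 86.3, 78.8 and 83.9 in Ctrl 1 to 5. They ran from 55.5 to 87.4 with a median of 69.5 in Case, and from 12.8 to 77.9 with a median of 70.1 in Dapa. Dapa 9 (12.8) and Dapa 12 (30.0) lay below all other mice, and the other Dapa mice ran from 67.7 to 77.9. The difference was −23.7 points in Dapa against Ctrl (exact permutation p = 0.0390, adjusted p = 0.311), and −16.8 points in the db/db mice together (p = 0.0495, adjusted p = 0.342). The first difference had a p under 0.05 in 4 of 11 fits that left out 1 mouse and the second in 5 of 17, and without Dapa 9 the first was −15.0 (exact permutation p = 0.0714). With scores of at least 5, the db/db difference was −27.9 with an adjusted p of 0.0449 (exact permutation test). In that setting, with lists of unequal length, 3.27% of all regions passed. In Case against Ctrl, Akt2-1 differed by −9.81 points with the equal lists (exact permutation p = 0.152). It differed by −10.3 points with all summits (exact permutation p = 0.0216) and by −23.2 with scores of at least 5 (p = 0.0130). In those settings 16.9% and 21.3% of all regions had a p under 0.05. Akt2-3 (chr7:27607408-27608131), at the start of a shorter transcript, was open in 3, 6 and 4 mice. Its mean was 43.9 ± 23.2 (SD, n = 6) in Case against 16.4 ± 18.2 (n = 5) in Ctrl, a difference that did not pass (exact permutation p = 0.0563). With Ctrl 1, Ctrl 5, Case 2 or Case 6 left out singly, it was 32.0, 32.8, 33.1 and 31.6 points (exact permutation p = 0.0476, 0.0381, 0.0397 and 0.0476). Ctrl 1 and Ctrl 5 had the highest Ctrl values, and Case 2 and Case 6 the lowest Case values. Leaving out any of them therefore widens the difference.

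**Figure D3:**
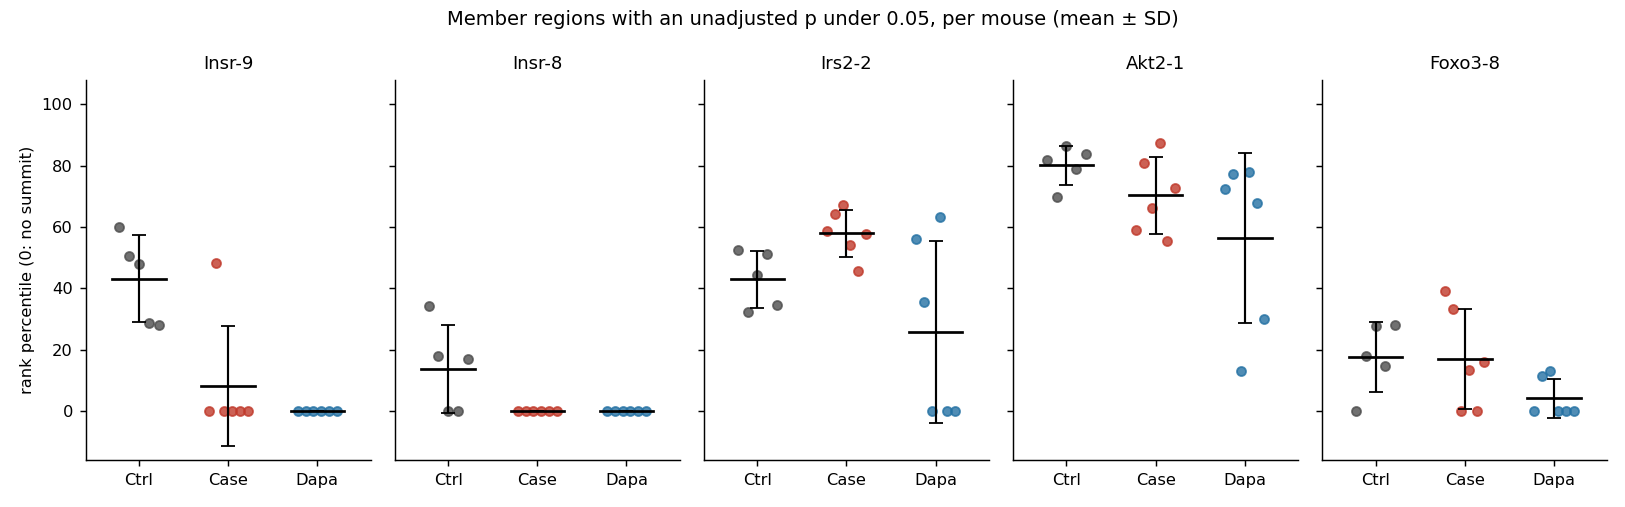
Rank percentile (0 where the list held no summit) in each mouse, with the group mean and SD, of the 5 member regions with an unadjusted p under 0.05 by either region test. Insr-9 is at 0 in all Dapa mice and in 5 of 6 Case mice, Irs2-2 is highest in Case and at 0 in 3 Dapa mice, and Akt2-1 is low in Dapa 9 and Dapa 12.

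Foxo1 and Foxo3 encode the FOXO transcription factors that AKT inhibits. Foxo1 (ENSMUSG00000044167.6, chr3:52268336-52353221, plus strand) was open at its start in every mouse. Foxo1-1 (chr3:52268052-52269161) had medians of 76.0 in Ctrl, 79.6 in Case and 81.2 in Dapa. Its low values were 47.7 in Case 3, 38.7 in Case 5 and 42.1 in Dapa 11, while the lowest in Ctrl was 63.8. Its summits over the window numbered 2, 4, 3, 3 and 4 in Ctrl 1 to 5, 1 to 4 in Case and 2 to 5 in Dapa, and no Foxo1 test of the equal lists had a p under 0.05. Foxo1-3, an intronic region 22615 bp downstream (chr3:52290677-52291284) that is named because of its values in other settings, had percentiles of 0, 17.7, 6.79, 0 and 16.8 in Ctrl 1 to 5. Case 2 (16.2) was the only db/db mouse with a summit there, also in the complete lists, in which Ctrl 1 gained one. The db/db difference was −6.91 points with the equal lists (exact permutation p = 0.0546, adjusted p = 0.352). With all summits it was −29.8 points (exact permutation p = 0.0042, adjusted p = 0.0920), and −28.1 and −31.5 in Case and in Dapa against Ctrl (p = 0.0303 each). These percentiles come from lists of unequal length: Ctrl 2 was at rank 24434 of 56659 and Case 2 at rank 24886 of 31176. The exact Fisher p of Foxo1-3 with all summits was 0.0152 for Dapa and 0.00986 for db/db against Ctrl, with adjusted p of 0.199 and 0.279. With the equal lists the db/db presence test had an exact Fisher p of 0.0525, and of 0.0269 without either Ctrl 1 or Ctrl 4 and 0.0179 without Case 2. Ctrl 1 and Ctrl 4 were the Ctrl mice without a summit there, so each of these omissions widens the difference. The sequence under Foxo1-5 had 36 other copies in the genome, so the placement of reads there is uncertain and the region is only counted here, as is Igf1r-15 with 4 other copies.

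Foxo3 (ENSMUSG00000048756.11, chr10:42181841-42276755, minus strand) was the most densely open gene of the list with Igfbp1 and Irs2, at 7.18 summits per 100 kb. It held 10 regions, of which 4 were open in every mouse. A pair lay at the start: Foxo3-1 (chr10:42277460-42278135) with means of 84.8, 78.2 and 80.2 in Ctrl, Case and Dapa, and Foxo3-2 (chr10:42276457-42277036) with means of 67.0, 71.7 and 68.5. The other two, Foxo3-9 (chr10:42225447-42226100) and Foxo3-10 (chr10:42202458-42203335), lay in an intron 50990 and 73959 bp downstream. Foxo3-9 was 72.6, 80.5, 81.5, 76.9 and 85.6 in Ctrl 1 to 5, and reached down to 16.8 in Case 3 and 22.1 in Dapa 7. Its difference was −17.2 points in db/db against Ctrl, which did not pass (exact permutation p = 0.0504, adjusted p = 0.346). With all summits its p was 0.0042 (exact permutation, adjusted p = 0.0920). In that setting, with lists of unequal length, 15.9% of all regions had a p under 0.05.

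Foxo3-8 (chr10:42230542-42231508, intron, 45708 bp downstream) was the Foxo3 region with a p under 0.05 with the equal lists. Its percentiles in Ctrl 1 to 5 were 0, 17.7, 27.5, 14.7 and 27.9. They ran from 0 to 39.0 with a median of 14.6 in Case, and Dapa 8 (11.4) and Dapa 9 (12.8) were the only Dapa mice with a summit. The difference was −13.5 points in Dapa against Ctrl (exact permutation p = 0.0390, adjusted p = 0.311). The p was under 0.05 in 3 of the 11 fits that left out 1 mouse and was 0.0909 with all summits. Foxo3 summits over the window numbered 8, 7, 7, 8 and 7 in Ctrl 1 to 5, 5 to 10 in Case and 6 to 9 in Dapa.

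Igfbp1, the secreted target of the pathway (ENSMUSG00000020429.7, chr11:7197782-7202546, plus strand), had a single region. Igfbp1-1 (chr11:7197357-7198107), centred 67 bp upstream of the start and overlapping the promoter printed above, was open in all 17 mice. Its percentiles were 81.8, 79.2, 88.9, 72.1 and 61.6 in Ctrl 1 to 5. They ran from 50.8 to 91.5 with a median of 84.8 in Case, and from 45.9 to 88.7 with a median of 76.7 in Dapa. The means of 76.7 ± 10.4 (SD, n = 5), 75.4 ± 19.1 (n = 6) and 73.9 ± 16.1 (n = 6) differed by less than the spread between mice, with an exact permutation p of 0.905 for Case against Ctrl and of 0.872 for Dapa against Case. Every mouse had 1 summit in the Igfbp1 window except Dapa 7, which had 2.

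**Figure D4:**
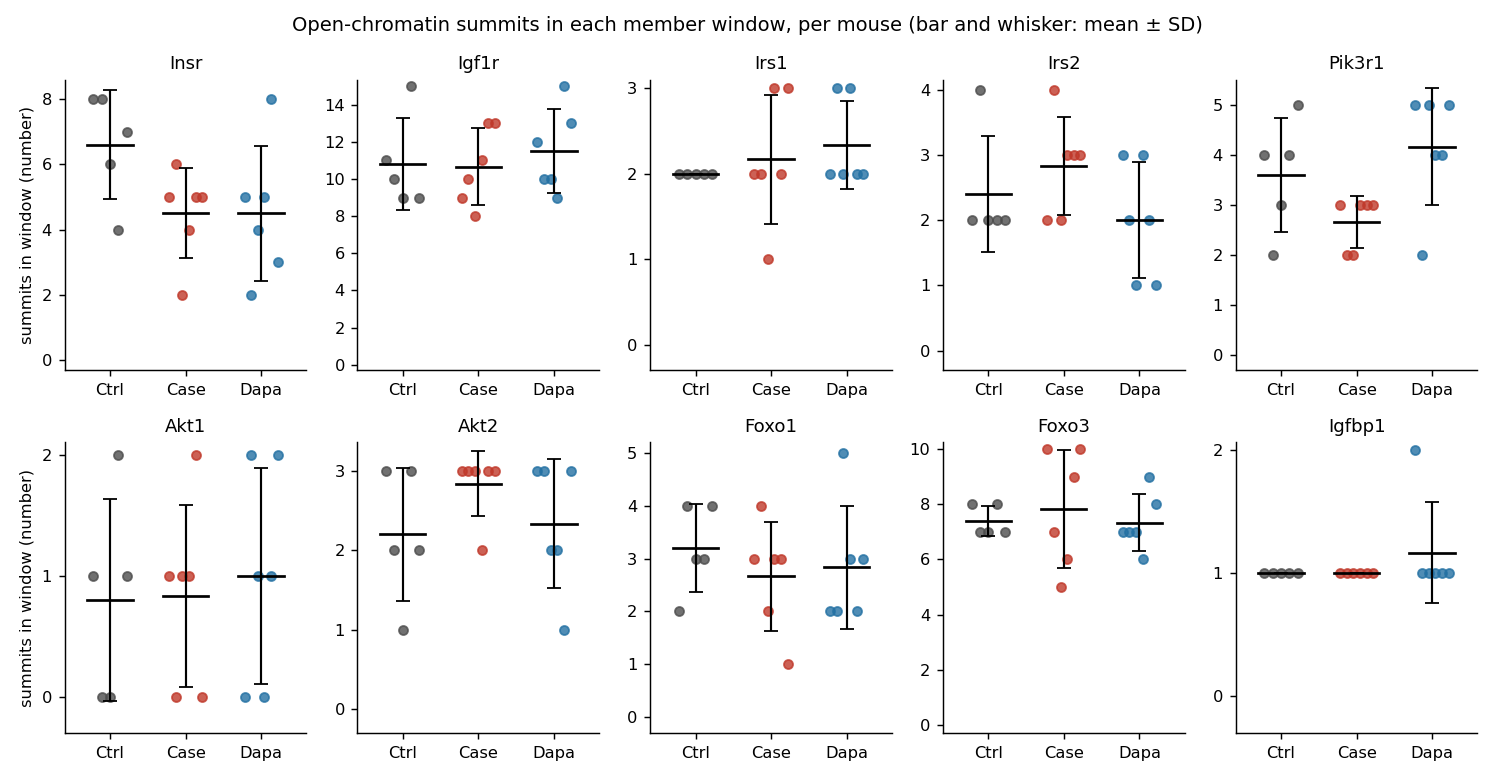
Number of summits in each member window (10 kb upstream to gene end) in every mouse, with the group mean and SD, from the equal lists of 29702 summits. Igf1r and Foxo3 hold the most summits and Akt1 the fewest, and Pik3r1 has 4 or 5 summits in 5 of 6 Dapa mice and 2 or 3 in every Case mouse.

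Between groups, 0 to 3 member regions passed the unadjusted threshold in each comparison and test of the equal lists. For rank percentiles, 2 of 44 member regions had an unadjusted p under 0.05 between Case and Ctrl, compared with 14.9% of all regions tested. The counts were 1 of 44 against 3.92% for Dapa and Case, 3 of 42 against 13.9% for Dapa and Ctrl, and 2 of 49 against 14.5% for db/db and Ctrl. For presence by Fisher's exact test, they were 1 of 18 against 10.2%, 0 of 12 against 1.18%, 1 of 16 against 7.91% and 2 of 34 against 9.29%, in the same order. With all summits the presence count for Dapa and Ctrl was 2 of 18, compared with 7.60% of all regions. For the summit number of the 10 genes, they were 0 against 3.96% of all genes, 1 against 0.883%, 0 against 3.21% and 1 against 4.94%. The groups did not overlap at 0 of 44, 0 of 44, 1 of 42 and 0 of 49 member regions, compared with 2.88%, 0.14%, 2.6% and 0.743% of all regions. Of the 60 member regions, 44, 44, 42 and 49 had a summit in at least 4 of the compared libraries and could be tested for percentiles. Their median difference was −0.977, 0.601, −0.226 and −1.05 percentile points in the 4 comparisons, beside −3.21, 1.22, −1.52 and −1.38 for all regions tested.

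After adjustment over all features, 0 members passed in any comparison. Over the genome, 0% of regions or genes passed in each of these tests except 1, the percentiles of db/db against Ctrl, in which 255 of 34320 regions (0.743%) passed, and no member region was among them.

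**Figure D5:**
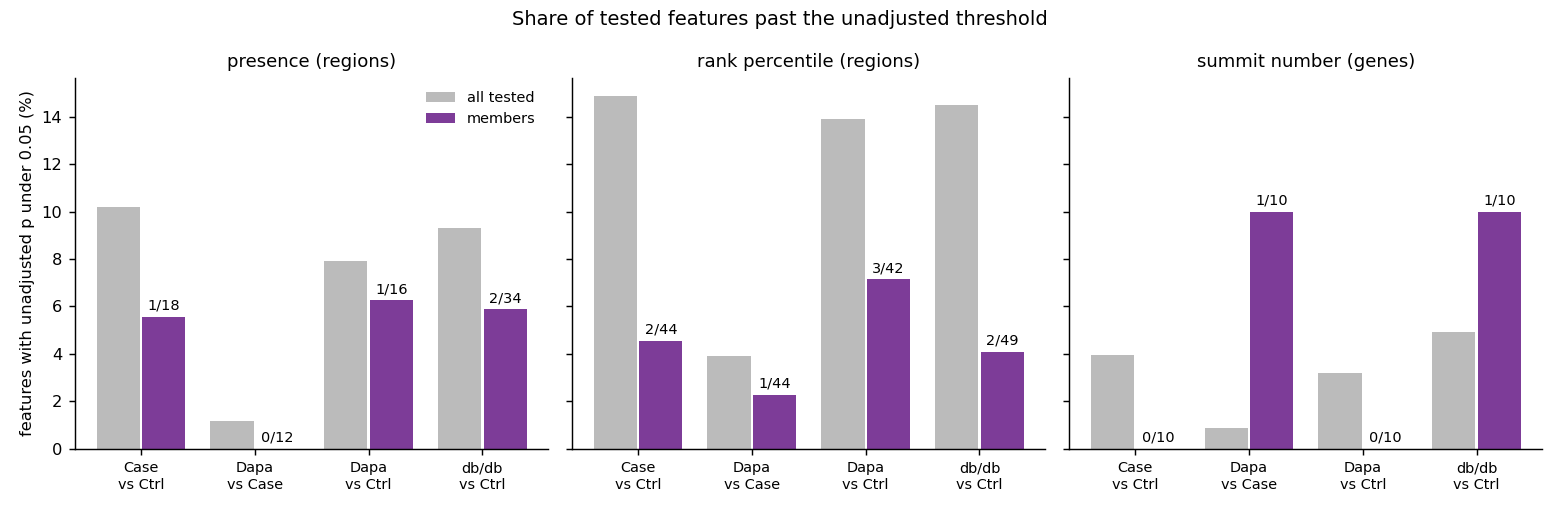
Percentage of tested features with an unadjusted p under 0.05 in each comparison (bars from 0), for all regions or genes (grey) and for the members (purple, with counts), by presence, rank percentile and summit number. The purple bars of the region tests stand for 0 to 3 member regions each, and in the summit numbers 1 of 10 genes is called for Dapa against Case and for db/db against Ctrl.

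The rest of the pathway was read through 50 further genes, listed with earlier results of these data known. All 50 had a summit in their window in at least 1 library and 34 had one in every library. A start was open in all 17 libraries for 31 genes and in no library for Igf1, Insrr and Igfbp3. Between Case and Ctrl, 5 of the 47 genes tested had fewer summits at an unadjusted p under 0.05 and 1 had more, compared with 3.12% and 0.831% of all genes. Between Dapa and Ctrl, 3 of 46 had fewer and 0 more, compared with 2.34% and 0.87%. For db/db against Ctrl, 3 of 47 had fewer and 1 more, compared with 3.88% and 1.06%, and for Dapa against Case 0 of 47 passed in either direction. The median difference was 0 for the list and for all genes in each comparison, and 0 passed after adjustment.

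The genes with fewer summits in Case and in Dapa than in Ctrl were Gab1, Grb10 and Eif4ebp1. Gab1, a docking protein of the receptor tyrosine kinases, had 6, 7, 8, 7 and 6 summits in Ctrl 1 to 5 and 3 to 5 in Case, without overlap, and Dapa had 2 to 6. Its difference from Ctrl was −2.3 in Case (exact permutation p = 0.00433, adjusted p = 0.671), −2.8 in Dapa (p = 0.0260, adjusted p = 1) and −2.55 in the db/db mice together (p = 0.00194, adjusted p = 0.427). Grb10, an adaptor that inhibits the insulin receptor, had 6, 6, 6, 4 and 4 summits in Ctrl 1 to 5, none in Case 3, and up to 5 in the other db/db mice. Its difference from Ctrl was −2.2 in Case (exact permutation p = 0.0390) and −3.03 in Dapa (p = 0.0130). Eif4ebp1, the translation repressor that mTOR inactivates, had 2 summits in 4 Ctrl mice and 3 in Ctrl 5, and 0 to 2 in Case and Dapa. Its difference from Ctrl was −1.53 in Case (exact permutation p = 0.0216) and −1.2 in Dapa (p = 0.0216). Ptpn1, the phosphatase that switches the insulin receptor off, was the one gene with more summits. It had 2, 2, 3, 2 and 2 in Ctrl 1 to 5 and 4, 3, 6, 3, 5 and 4 in Case 1 to 6, a difference of 1.97 (exact permutation p = 0.0130, adjusted p = 0.953), and 2 to 4 in Dapa. These comparisons share the Ctrl mice and are not independent of each other.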

How the data were processed

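ATAC-seq libraries from the kidneys of 5 Ctrl, 6 Case and 6 Dapa mice were used. According to the submitters' processing notes and the study's methods, the authors aligned reads to mm10 with Bowtie2 in the ENCODE pipeline, discarded duplicate reads and blacklisted regions, shifted reads by +4 and −5 bp for the transposase, and called peaks with MACS2 in each library. DiffBind and HOMER are also named. Each deposited file gives summit positions and a −log10 score, either of the p-value or of the q-value of MACS2 (not given in the sources used here). The authors' score depends on depth, so presence, rank percentiles and summit numbers were compared in equal lists of 29702 summits, and complete lists and a limit on the score itself, which moves with depth, were alternatives.

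The 10 members and the gene lists were chosen with earlier results of these data known. By the rule for named genes, all members are named with their start region, other regions at an unadjusted p under 0.05 (at most 3 per gene), and up to 3 pathway genes per direction and comparison. Outside that rule, Insr-2, Insr-3, Insr-6, Igf1r-15, Igf1r-16, Igf1r-19, Irs1-2, Pik3r1-2, Pik3r1-3, Akt1-1, Akt2-3, Foxo1-3, Foxo1-5, Foxo3-9 and Foxo3-10 were chosen after their values were seen. Presence was compared by Fisher's exact test, percentiles and summit numbers by exact permutation tests (2-sided, SciPy 1.17.1), each over all regions or genes with Benjamini-Hochberg adjustment. Regions tested for percentiles and genes tested for summit numbers had a summit in at least 4 compared libraries. Replicates are separate mice per the labels. Pairing of Ctrl and Case by shared number, other list lengths, scores of at least 5, other extensions, a 2 kb upstream window and the omission of each mouse were tried. Reference positions fit the files' build: the highest summit on chromosome 1 (195371867) lies within its 195471971 bases. Other copies of a region were searched with BLAST 2.17.0. The scripts were tested on simulated data. The RNA-level effect of any region was not analysed here.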

Additional observations from a re-analysis of the deposited data

Results flagged for a closer look

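In each group, the summit number of the 10 genes and the percentile of their highest-ranked region were screened for a mouse far from the others of its group. Of 60 such sets of values 9 had one. The limit used would flag about 3 by chance for continuous, normally distributed values. Many of these sets are small counts or hold zeros, so 9 cannot be read against 3. Where the other mice share 1 value, any mouse that differs is flagged, as for Irs2, Akt2, Igfbp1 and Akt1-2. For Akt2 and Igfbp1 a single summit more or less was enough.

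Irs2 had 4 summits in Ctrl 2, compared with 2 in the other Ctrl mice. Pik3r1 had 2 in Dapa 8, compared with 4 or 5 in the other Dapa mice, and Akt2 had 2 in Case 4, compared with 3 in the other Case mice. Foxo1 had 5 in Dapa 9, compared with 2 or 3, and Igfbp1 had 2 in Dapa 7, compared with 1. Among percentiles, Pik3r1-1 was at 56.1 in Dapa 11, compared with 81.8 to 92.3 in the other Dapa mice, and Foxo1-1 was at 42.1 in the same mouse, compared with 74.0 to 91.0. Igf1r-16 was at 44.2 in Case 3, the Case mouse with the most leukocyte marker summits, compared with 88.9 to 94.3. Akt1-2 was at 23.0 in Ctrl 4 and at 0 in the other Ctrl mice. What set these mice apart was not tested.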

How the results depend on the processing

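The lists hold no read counts, so the depth behind a missing summit is unknown and absence means only that no summit was listed. Counts of member regions or genes with an unadjusted p under 0.05 were small and moved with the list. The share of all features called in the same test stands in parentheses. With all summits they became 7 of 47 (16.9%) for percentiles of Case against Ctrl, 0 (3.24%) for percentiles and 0 (0.799%) for summit numbers of Dapa against Case, 2 of 18 (7.60%) for presence of Dapa against Ctrl, and 4 of 49 (8.67%) and 4 of 59 (15.9%) for presence and percentiles of db/db against Ctrl. With lists of 14851 summits they became 0 for presence in each comparison with Ctrl (7.15% to 8.54%), 1 for percentiles in each comparison with Ctrl (13.8% to 14.4%), and 0 for percentiles of Dapa against Case (3.81%) and for summit numbers of Dapa against Case (0.635%) and db/db against Ctrl (3.89%), since fewer summits are in the lists. With scores of at least 5 they became 6 of 36 (21.3%) and 6 of 45 (21.3%) for percentiles of Case and of db/db against Ctrl, 2 (6.39%) for summit numbers of Case against Ctrl, 1 (12.3%) for presence of db/db against Ctrl, and 0 for percentiles of Dapa against Case (3.37%) and for summit numbers of Dapa against Case (0.675%) and db/db against Ctrl (8.38%). In that setting 2 of 45 member regions, Insr-9 and Akt2-1, passed the adjusted threshold for db/db against Ctrl, as did 961 of all 29378 regions (3.27%). The higher Irs2-2 percentile in Case than in Ctrl turned to −1.89 there. Regions gained with all summits or with scores of at least 5 included Foxo1-3, Foxo3-9, Irs1-2 and Igf1r-2, each lower in Case than in Ctrl. In both settings percentiles were taken within lists of unequal length. With mean ranks the count for percentiles of Dapa against Case was 0 (3.38%), as was that for summit numbers when summits within 500 bp were counted once (0.809%). Without Case 3 and Dapa 8, a setting chosen after seeing the data, the counts for Dapa against Case were 1 for presence (3.61%) and 2 for percentiles (5.30%; Insr-3 and Foxo3-8), and that for summit numbers of db/db against Ctrl was 0 (4.74%). The cause of these shifts was not tested. The extensions of 100 and 500 bp, the 2 kb window and the limit of 3 libraries changed no call of the 5 member regions called with the equal lists (at 500 bp Akt2-1 was merged with Akt2-2), and the 2 kb window changed no call of a member's summit number. With the extension of 100 bp the count for percentiles of Dapa against Ctrl rose to 4 of 45 (13.3%). The other pathway genes were not run under the alternatives.

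When each mouse was left out in turn, the counts ran from 1 to 3 for presence in each comparison with Ctrl (9.00% to 19.3% of all regions for Case, 7.33% to 15.2% for Dapa, 5.30% to 9.99% for db/db) and from 0 to 1 for Dapa against Case (1.27% to 2.46%). For percentiles they ran from 2 to 4 for Case against Ctrl (10.9% to 16.4%), from 0 to 3 for Dapa against Case (3.58% to 5.30%), and from 1 to 4 for Dapa (10.4% to 15.4%) and for db/db against Ctrl (10.9% to 15.1%). For summit numbers they ran from 0 to 1 in all 4 comparisons (0.696% to 5.43% of all genes), and after adjustment all were 0. The p of Insr-9 against Ctrl was under 0.05 in every one of these fits, for Case, Dapa and db/db, by both tests. That of Akt2-1 for Dapa against Ctrl was above 0.05 without Ctrl 1, Ctrl 3, Ctrl 4, Ctrl 5, Dapa 9, Dapa 11 or Dapa 12.

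With the replicate number as a block over the 5 pairs of Ctrl and Case, the counts were 0 for presence and 0 for percentiles, because 5 pairs cannot give a p below 0.0625. The paired differences were −33.4 for Insr-9 and 15.0 for Irs2-2 (exact sign-flip p = 0.0625 each). Deviations of same-numbered mice correlated between −0.0576 and 0.00617, and 0 of 5 Ctrl mice correlated best with their own number.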
